A study of Mus musculus with 24 samples.

Results

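Mammary glands of knock-in mice, homozygous for the R96C allele of SOCS2, were compared with wild-type glands at pregnancy day 18, when the alveolar epithelium is differentiating for lactation. The comparison took in every array labelled with that day, 5 from knock-in and 5 from wild-type mice, which is 10 of the 24 arrays of the study. The other 14 were from virgins of 8 weeks, 7 of each genotype, and enter only where the stages are set side by side. All mice were C57BL/6 females. The inguinal number 4 gland was taken after removal of its lymph node and frozen, and RNA was measured on 1-colour Agilent mouse arrays, 1 array for each animal. The labels do not give the age of the day-18 mice, the number of founders of the knock-in line or whether wild-type mice were littermates. The animals carry different numbers, which are used below to name them, and the genotypes are unpaired.

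SOCS2 is a suppressor of cytokine signalling. Its SH2 domain binds phosphorylated tyrosines of receptors such as the growth hormone receptor, and its SOCS box recruits a ubiquitin ligase that marks the receptor complex for degradation. Socs2 is itself induced by STAT5, the transcription factor that prolactin and growth hormone activate in the pregnant gland and that drives milk protein genes, so the protein acts in a feedback loop. The substitution lies in the SH2 domain and corresponds to a variant known from dairy sheep, where it was linked to mastitis and body size. The array reads no single base, so genotypes rest on the labels.

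Milk protein RNA was abundant in glands of both genotypes. The milk protein genes Csn2 (beta-casein), Wap (whey acidic protein) and Lalba (the lactose synthase regulator) had levels of 7.96 to 8.77, 9.20 to 10.07 and 8.29 to 9.51 over the 10 arrays, on the log2 scale where 0 is the 75th percentile of the array. Between 33374 and 37886 non-control spots were well above background on every array except that of knock-in mouse 184, which had 43055. The larger count does not mean a cleaner array, because background was higher there. Negative controls averaged 41.4 for mouse 184, while the averages of all remaining day-18 animals lay between 20.3 and 31.0. The dimmest spot called well above background had an intensity of 30.5 for mouse 184 and of 9.3 to 12.8 for the remaining animals. Correlations between arrays ran from 0.934 to 0.991. RNA of skeletal muscle varied between animals: the mean log2 level of 16 muscle genes was 4.20 in knock-in mouse 211, 3.02 in knock-in mouse 184, 0.41 in knock-in mouse 210 and -0.11 in wild-type mouse 233, against -3.02 to -2.10 in the other 6. Results are therefore also given without mice 184 and 211 where that changes a call.

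Of 56605 probes on the array, 32013 were measured at day 18, that is, the scanner software called them well above background in 80% or more of the animals of a genotype. Levels are given on the log2 scale after subtracting the 75th percentile of the array, and differences are knock-in minus wild type on that scale, with the standard error after ±. A probe was called at an adjusted p under 0.05 (limma, Benjamini-Hochberg over all 32013 probes). The rule called 2 probes, or 0.00625%. Both were higher in knock-in glands and both are annotated to Socs2. No probe (0%) was called lower. At an unadjusted p under 0.05 there were 1997 probes (6.24%), 945 higher (2.95%) and 1052 lower (3.29%). The count was 1230 without wild-type mouse 235, 1259 without wild-type mouse 206, 1299 without knock-in mouse 210 and 3021 without knock-in mouse 183. It was 639 with all 24 arrays in the fit, 3306 with 23 of them and 3047 with slide as a block. The median difference of all probes was -0.01 and the median standard error 0.22, and 579 probes differed by 2-fold or more.

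**Figure D1:**
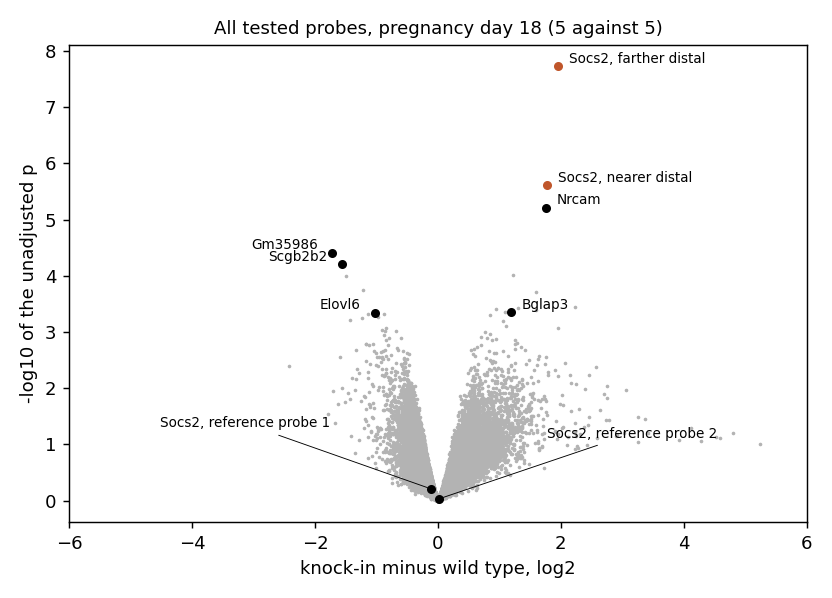
Each point is 1 of the 32013 probes measured at day 18, with the log2 difference (knock-in minus wild type, 5 animals each) on the horizontal axis and -log10 of the unadjusted limma p on the vertical axis. The 2 orange points, both distal Socs2 probes, passed at an adjusted p under 0.05; the black points are named genes or probes that did not.

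The array has 4 probes named Socs2, and an unnamed probe lies between them on the same strand. The first bases of each 60-base probe are shown, because the probes of this gene behaved differently and the sequences tell which stretch of transcript each one reads. All are on the minus strand of chromosome 10 in the mm9 coordinates of the array files, listed in the direction of transcription, and 30 of 60 bases are given.
First reference-transcript probe (chr10:94875468-94875527): tgacagtgtggttcatctgattgactacta
Second reference-transcript probe (chr10:94875066-94875125): aggtgtgaagatgtagctaggtattttaaa
Unnamed downstream probe (chr10:94871153-94871212): ttactctctcctgctcttcccacgatgctg
Nearer distal Socs2 probe (chr10:94850747-94850806): tgtcataggagaaactacatctgggaaatt
Farther distal Socs2 probe (chr10:94848005-94848064): gccaatgctgacacaaagacaatctcttaa

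The first 2 probes lie 402 bp apart and read the RefSeq transcript of Socs2. The unnamed probe starts 4315 bp downstream of the first, and the distal probes, which the array files assign to alternative Ensembl transcripts of Socs2, start 24721 and 27463 bp downstream of it. Exon structure at these positions was not analysed here.

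The reference transcript was measured at close to the same level in both genotypes. At the first reference-transcript probe, the wild-type animals 234, 233, 206, 232 and 235 had levels of 0.47, -0.11, 0.78, 0.89 and 0.88, and the knock-in animals 211, 210, 184, 239 and 183 had 0.75, 0.02, 0.51, 0.37 and 0.71. The groups overlapped throughout their range, and the difference was -0.11 ± 0.22 (95% confidence interval -0.61 to 0.38, adjusted p = 0.884). At the second reference-transcript probe, the levels in the same order were 2.04, 1.36, 2.07, 1.97 and 1.89 in wild-type and 1.79, 1.60, 1.76, 2.12 and 2.12 in knock-in glands. Wild-type mouse 233 was lowest, and the difference was 0.01 ± 0.18 (95% confidence interval -0.38 to 0.41, adjusted p = 0.983). The exact permutation test over all 252 splits of the 10 animals gave two-sided p = 0.587 and 0.929 for the 2 probes.

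The distal probes rose in knock-in glands. At the farther distal probe, wild-type levels were -3.09, -2.93, -3.08, -2.59 and -2.77, and knock-in levels were -1.01, -0.83, -0.94, -0.91 and -1.01. The 5 knock-in animals lay close together (SD 0.074) and all above the highest wild-type animal. The difference was 1.95 ± 0.14 (95% confidence interval 1.65 to 2.26), a 3.87-fold higher signal, with adjusted p = 5.99e-04. At the nearer distal probe, wild-type levels were -2.68, -3.01, -2.64, -2.15 and -2.56, and knock-in levels were -0.56, -1.31, -0.66, -1.04 and -0.58. The groups did not overlap, and the difference was 1.78 ± 0.20 (95% confidence interval 1.33 to 2.22), a 3.43-fold higher signal, with adjusted p = 0.0390. Both were well above background on all 10 arrays. The exact two-sided permutation p was 0.00794 for each, the smallest that 5 animals against 5 can give. Any probe whose groups do not overlap gets this value, so it adds nothing to the absence of overlap.

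The call at the farther probe held when any 1 animal was left out, with differences of 1.90 to 2.03 and adjusted p of 0.00125 to 0.00535, and without knock-in mice 184 and 211 (1.98 ± 0.17, adjusted p = 0.020). It was lost when arrays were scaled to their median or to spike-in controls and when the 14 virgins shared the variance estimate. The nearer probe was close to the threshold: leaving out any animal but wild-type 232 or knock-in 210 raised its adjusted p above 0.05, up to 0.217, while the difference stayed at 1.68 to 1.90.

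The unnamed downstream probe had levels of -0.82, -0.81, -1.16, -0.86 and -1.03 in wild-type and 0.37, 0.10, -0.56, 0.33 and -0.15 in knock-in glands. The groups did not overlap. Its difference of 0.95 ± 0.19 did not pass (adjusted p = 0.729, unadjusted p = 3.87e-04). Of all probes, 123 (0.384%) had every knock-in animal above every wild-type animal and 227 (0.709%) every one below.

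**Figure D2:**
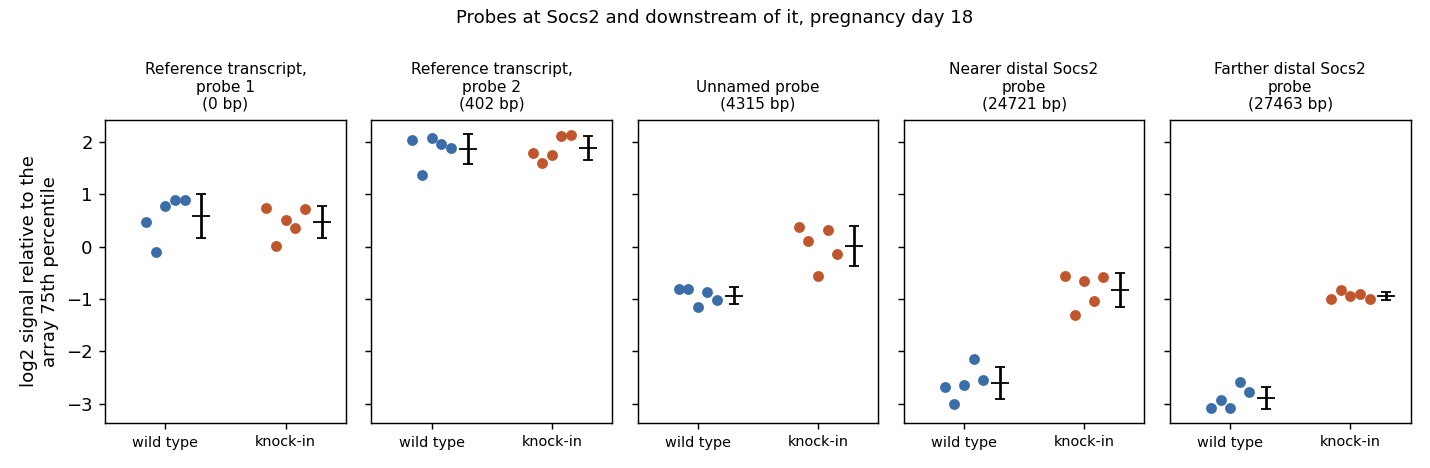
Each point is 1 animal; the vertical axis is the log2 signal relative to the array's 75th percentile, and the bar beside each group is the mean ± SD (n = 5). Titles give the distance downstream of the first reference-transcript probe; the groups overlap at the reference-transcript probes and are apart at the 3 probes farther downstream.

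Animals of both genotypes were present on each of the 3 slides. Within slides the farther distal probe differed by 2.12, 2.12 and 1.67, and the nearer one by 1.83, 1.86 and 1.79. With slide as a block the farther probe passed (1.99 ± 0.14, adjusted p = 0.00752) and the nearer one did not (1.83 ± 0.19, adjusted p = 0.0808). With normexp background correction the differences were smaller, at 1.14 and 1.08, and both passed. Slide 1 held 1 wild-type and slide 3 held 1 knock-in day-18 array, so those values rest on a single animal in that group.

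In virgins the same probes differed by 1.53 ± 0.28 (farther) and 1.35 ± 0.32 (nearer), or by 1.55 and 1.41 without 1 virgin knock-in array of high background, mouse 376. The reference-transcript probes differed there by -0.71 ± 0.38 and -0.64 ± 0.35, or by -0.60 and -0.58 without that array. The day-18 and virgin differences at the farther probe were themselves 0.43 ± 0.44 apart, with an unadjusted p of 0.339, and those at the other 4 probes had unadjusted p of 0.244 to 0.388 (limma, not adjusted over these 5). Across all 35117 probes measured at either stage, the test of a difference between stages called 0 (0%), with 347 (0.988%) at an unadjusted p under 0.05 and a smallest adjusted p of 0.999912. That count of 347 was 1834 without virgin knock-in mouse 376, 717 without knock-in mouse 184 and 571 without virgin knock-in mouse 384, each with 0 called.

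Probes around Socs2 were spread about 0. Of 91 other probes within 5 Mb, 7 had an unadjusted p under 0.05, or 7.69% against the 6.24% of all probes. Their median difference was 0.004, and their range was -0.65 to 0.95, the highest being the unnamed downstream probe. Mrpl42, a mitochondrial ribosomal protein gene upstream of Socs2, had a difference of -0.14 ± 0.14. A probe of Cradd, an adaptor of caspase-2 signalling on the far side of the distal probes, had 0.19 ± 0.51. Of the 15 array probes within 100 kb, 10 were bright enough to test. Those named for genes beyond that window with the smallest p were Plxnc1, a semaphorin receptor (0.55 ± 0.18), Gm32688 (-0.65 ± 0.23) and the complex I subunit gene Ndufa12 (-0.38 ± 0.15), all with adjusted p = 0.729.

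**Figure D3:**
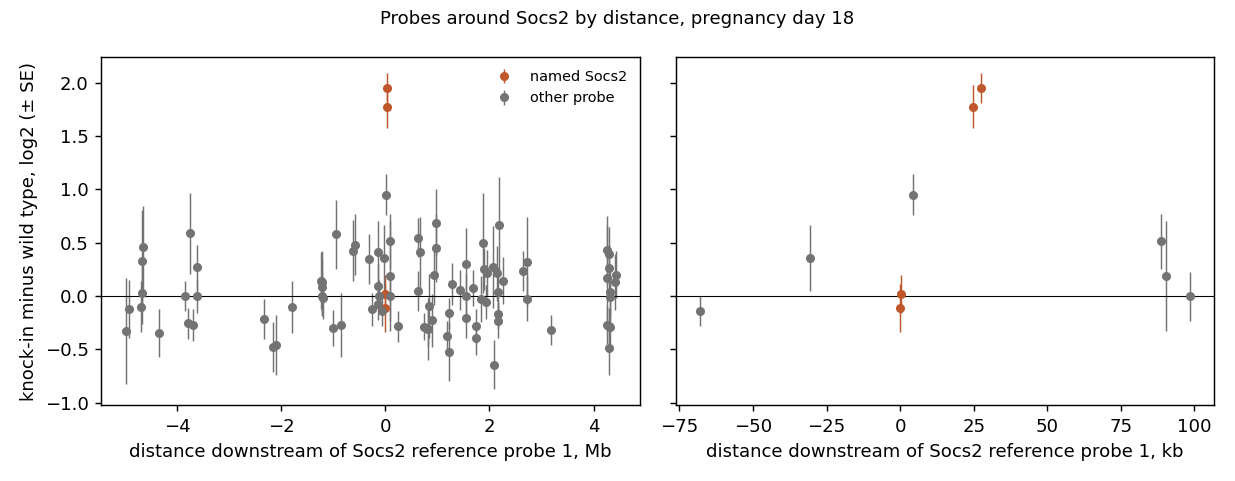
The horizontal axis is the distance downstream of the first reference-transcript probe of Socs2, in Mb (left) and kb (right), and the vertical axis is the log2 difference (knock-in minus wild type) with its standard error, n = 5 animals each. The 2 distal Socs2 probes stand at 1.78 and 1.95, the unnamed probe at 0.95, and the other neighbours scatter around 0.

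Beyond Socs2, no gene passed, and the genes of smallest p are named with their values only. With 1 probe for each of 20721 genes, 0 (0%) were called, 536 (2.59%) were higher and 831 (4.01%) lower at an unadjusted p under 0.05, and 1367 (6.6%) in all. Here and below, these genes include names found only in the array files, such as transcribed regions without a gene symbol. The genotypes did not overlap at 78 of these genes (0.376%) with knock-in higher and at 190 (0.917%) with knock-in lower. Nrcam, a cell adhesion molecule of the immunoglobulin family best known from axons, came closest. Its levels were -2.41, -2.30, -2.17, -2.34 and -3.23 in wild-type glands and -1.09, -0.91, -0.37, -0.67 and -0.65 in knock-in glands. The groups did not overlap, with wild-type mouse 235 far below its group. The difference was 1.75 ± 0.22 (95% confidence interval 1.27 to 2.23, adjusted p = 0.0657). Its probe lies at chr12:45699758-45699817 (mm9, plus strand). In 4 of the alternative analyses Nrcam passed, at adjusted p of 0.0296 to 0.0476.

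The 3 mouse osteocalcin genes were all among the higher genes of smallest p. Osteocalcin is the vitamin K-dependent matrix protein of bone, and Bglap3, also called osteocalcin-related protein, is transcribed outside bone. Bglap3 levels were 4.16, 4.46, 4.63, 4.15 and 4.42 in wild-type and 6.04, 5.27, 4.92, 5.35 and 6.16 in knock-in glands. All knock-in animals were above all wild-type animals, and the difference was 1.18 ± 0.24. Bglap2 differed by 1.21 ± 0.25 and Bglap by 1.30 ± 0.26, also without overlap, and adjusted p was 0.729 for each. The genes lie within one cluster on chromosome 3. The probes of Bglap2 and Bglap3 share a run of 13 bases, in capitals below, so signal shared between these copies cannot be told apart from separate signals.
Bglap2 (chr3:88181822-88181881): gctatcagACCAGTATGGCTTgaagaccgc
Bglap3 (chr3:88172673-88172732): aaACCAGTATGGCTTaaagaccgcctacag

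Other genes of small p on the higher side were Trpm2, a calcium-permeable channel opened by oxidative stress (1.22 ± 0.21, adjusted p = 0.463; another of its probes had 0.39 ± 0.17), the long non-coding RNA Gm20752 (1.60 ± 0.29, adjusted p = 0.693) and, at adjusted p = 0.729, the following. Scube1, a secreted and membrane-bound EGF-repeat protein, had 1.06 ± 0.22, and Prok1, the ligand prokineticin 1, had 0.95 ± 0.22. Galnt6, which starts mucin-type O-glycans, had 0.77 ± 0.17, and the orphan receptor gene Gpr162 had 0.85 ± 0.20. Themis3 had 1.25 ± 0.30 and the non-coding 9330175E14Rik 0.80 ± 0.19. Scd3, a stearoyl-CoA desaturase, had 0.71 ± 0.16, while its brightest probe had -0.39 ± 0.29, so its probes disagreed. Hpse, which encodes the heparan sulfate-cleaving heparanase, was well above background on 0 wild-type and 4 knock-in arrays at 1 probe. That probe was kept through the knock-in group only, and the levels of the genotypes overlapped at it. The knock-in mean there was at least 1.55-fold higher as a lower bound, and the other Hpse probe had 0.29 ± 0.55. Such bounds set the mean of the brighter group against the lowest signal well above background on each array of the dimmer group.

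The lowest p on the lower side belonged to Gm35986, a long non-coding RNA. Its levels were -1.58, -0.95, -1.19, -1.78 and -1.19 in wild-type and -3.08, -2.59, -2.72, -2.93 and -3.95 in knock-in glands. The groups did not overlap, and the difference was -1.72 ± 0.26 (95% confidence interval -2.30 to -1.14, adjusted p = 0.308). Its probe (chr3:129230421-129230480, minus strand) is 107275 bp from that of Elovl6 (chr3:129337756-129337815, plus strand), the elongase that turns palmitate into stearate. Elovl6 had levels of 3.49, 4.12, 3.24, 3.13 and 3.79 in wild-type and 2.81, 2.72, 2.33, 2.52 and 2.25 in knock-in glands, again with no overlap. Its difference was -1.03 ± 0.21 (adjusted p = 0.729). This pair was singled out after its values were seen.

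A pair of secretoglobin genes, coding for small secreted proteins of exocrine glands related to androgen-binding protein, was also on the lower side. Scgb2b2 had levels of -1.15, -0.97, -0.43, -1.97 and -1.51 in wild-type and -2.96, -2.61, -2.72, -2.88 and -2.65 in knock-in glands. Every knock-in animal was below every wild-type animal, and the difference was -1.56 ± 0.25 (adjusted p = 0.402). Scgb2b20 differed by -1.21 ± 0.22 (adjusted p = 0.693), without overlap. Their probes share a run of 11 bases, in capitals, so the genes may share signal.
Scgb2b2 (chr7:32089876-32089935): gagtgccatCTTGCTGACCTttctttctct
Scgb2b20 (chr7:34149432-34149491): aagtgccacCTTGCTGACCTgtcctttttc

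Brinp3, a gene expressed mainly in neurons, was well above background on 5 wild-type and 0 knock-in arrays. Its probe was kept through the wild-type group only, and its difference was -1.49 ± 0.25 (adjusted p = 0.463), with knock-in values near background. As a lower bound, which was not tested, its signal was at least 1.36-fold lower in knock-in glands. The remaining lower genes all had adjusted p = 0.729. They were the metabolic genes Acss2 (acetyl-CoA from acetate, -0.86 ± 0.19), Bbox1 (the last step of carnitine synthesis, -0.88 ± 0.18) and Fmo2 (a flavin monooxygenase, -0.69 ± 0.15), the retinoic acid binding protein gene Crabp1 (-0.97 ± 0.20), the BMP and Wnt antagonist Sostdc1 (-0.90 ± 0.20), the homeobox gene Hoxb8 (-1.14 ± 0.23), the heparan sulfate sulfotransferase Hs3st1 (-0.88 ± 0.20), the ubiquitin ligase Trim9 (-1.42 ± 0.30), Tceal3 (-0.85 ± 0.19) and Mmd (-1.24 ± 0.26). Probes disagreed for Acss2 and Tceal3, each of which had a dimmer probe with a difference above 0 (1.16 ± 0.51 and 0.43 ± 0.54). The 2 brighter probes of Mmd each had -0.41. Several of these genes were near background: Trpm2 was well above it on 1 wild-type and 4 knock-in arrays, Trim9 on 4 and 1, Themis3 on 3 and 5, Scube1 on 4 and 5, and Hoxb8, Mmd and Hs3st1 on 5 wild-type and 3 knock-in arrays each. Except for Scube1, these probes were kept through the brighter group only, which favours a difference in that direction.

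Gene lists were then read by the count and median of their measured members, each gene by its brightest probe. No member of any list was called, so what follows describes levels and differences, and the median of all 20721 genes was -0.05. Of these genes, 11923 (57.5%) were below 0, and the counts of members below 0 are to be read against that share. All shares of genes given here also count names found only in the array files, so they are not shares of annotated genes alone. At an unadjusted p under 0.05 (limma), 2.59% of all genes were higher and 4.01% lower. Counts of members at that threshold are to be read against those shares. Scaling arrays to their median moved the median of all probes from -0.01 to -0.40, and scaling to spike-in controls moved it to 0.12, so a list median near 0 can change sign with the scaling. Whole glands were measured, so fewer cells of a type and less RNA per cell cannot be told apart.

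**Figure D4:**
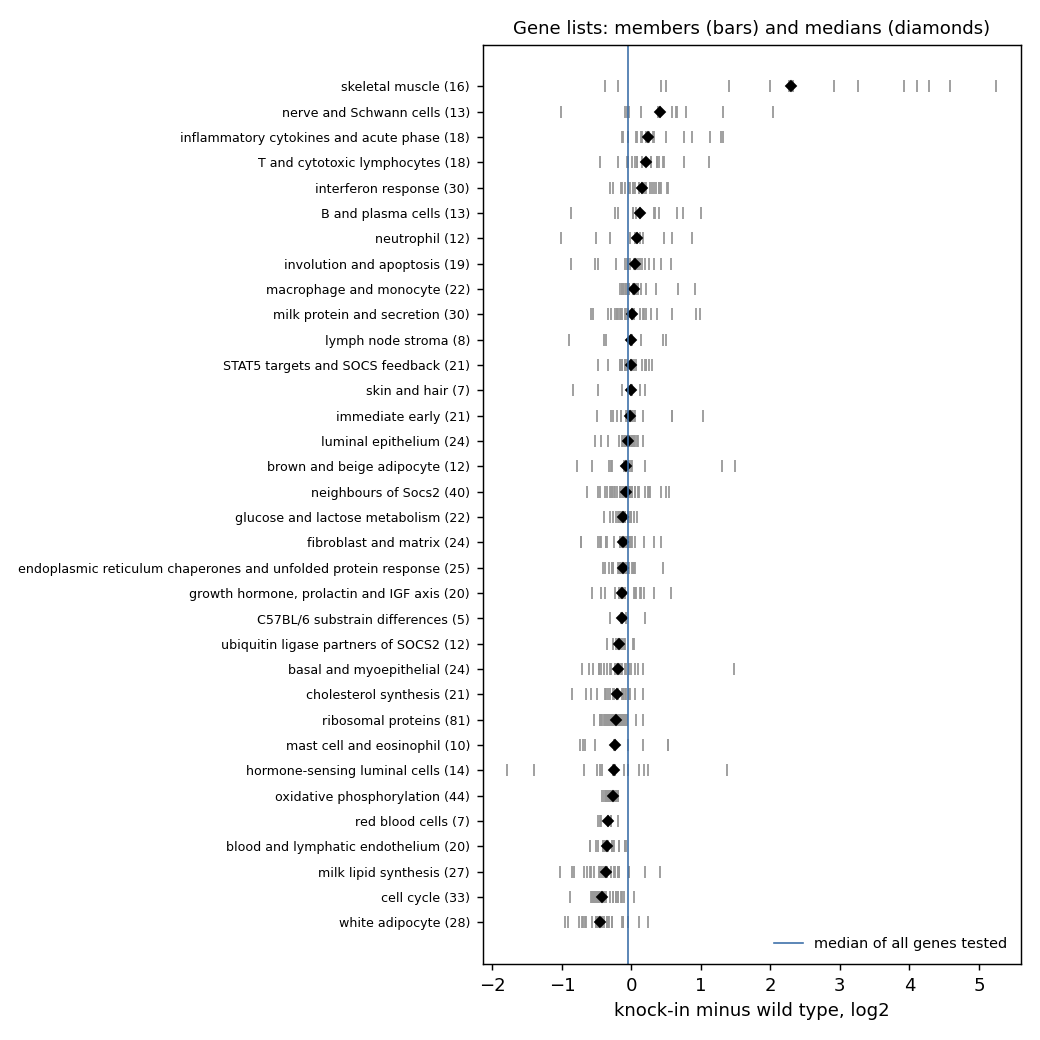
Each row is a gene list with its number of measured members; bars are the log2 differences (knock-in minus wild type) of the members and diamonds their median. Most diamonds lie within 0.5 of the blue line at the median of all genes, and skeletal muscle stands apart at 2.30.

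The STAT5 and SOCS feedback genes had a median of -0.01 over 21 measured members, with none at an unadjusted p under 0.05. Cish, the STAT5-induced relative of SOCS2, had levels of 4.03, 4.43, 4.67, 3.92 and 4.00 in wild-type and 3.72, 4.47, 4.09, 4.67 and 4.15 in knock-in glands. The groups overlapped, with a difference of 0.01 ± 0.21 (95% confidence interval -0.46 to 0.48). The feedback inhibitors Socs1 and Socs3 had 0.22 ± 0.14 and 0.26 ± 0.17. The transcription factors Stat5a and Stat5b had -0.09 ± 0.27 and -0.16 ± 0.16, and their activating kinase Jak2 had -0.01 ± 0.19. Of STAT5 targets, the survival kinase Pim1 had -0.34 ± 0.18 and the cell cycle gene Ccnd1 had -0.48 ± 0.30. Each of these intervals includes 0. Among 12 partners of SOCS2 in its ubiquitin ligase, the median was -0.18, and the RING protein gene Rnf7 had the smallest p (-0.35 ± 0.15).

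The growth hormone, prolactin and IGF axis had a median of -0.13 over 20 members, 1 higher and 1 lower at an unadjusted p under 0.05. The receptors Ghr (-0.13 ± 0.33), Prlr (0.18 ± 0.26) and Igf1r (-0.09 ± 0.16) and the ligand Igf1 (0.14 ± 0.19) had intervals that include 0. Irs1, which couples the insulin and IGF1 receptors to PI3 kinase, was the lower member. Its levels were 4.06, 4.38, 4.08, 3.67 and 3.84 in wild-type and 3.28, 3.43, 3.64, 3.33 and 3.54 in knock-in glands. The groups did not overlap, and the difference was -0.56 ± 0.16 (adjusted p = 0.729). Igfbp5, a binding protein that limits IGF1 and is known from involution, was the higher member, with 5.64, 5.04, 5.80, 5.29 and 4.87 in wild-type and 5.85, 6.19, 5.23, 6.12 and 6.06 in knock-in glands. Its groups overlapped through knock-in mouse 184, and the difference was 0.56 ± 0.24 (adjusted p = 0.729).

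Milk protein and secretion genes had a median of 0.004, with none of 30 at an unadjusted p under 0.05. Csn2 had levels of 8.64, 8.41, 8.73, 7.96 and 8.67 in wild-type and 8.33, 8.61, 8.43, 8.77 and 8.28 in knock-in glands, a difference of 0.00 ± 0.18 (95% confidence interval -0.39 to 0.40). Wap had 0.03 ± 0.19, Csn1s1 0.02 ± 0.17 and Lalba 0.04 ± 0.24. Elf5, the transcription factor of alveolar cells, had -0.15 ± 0.24. The 95% confidence intervals of Wap, Csn1s1 and Lalba were -0.40 to 0.45, -0.36 to 0.40 and -0.48 to 0.56. The highest members were the acute-phase genes Saa1 (0.98 ± 0.50) and Saa2 (0.93 ± 0.44), for which knock-in mouse 239 lay within the wild-type range and the other 4 knock-in animals above it.

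Genes of milk fat synthesis had a median of -0.37, with 25 of 27 members below 0 (57.5% of all genes were) and 8 lower at an unadjusted p under 0.05. Besides Elovl6 and Acss2 these included the citrate carrier Slc25a1 (-0.83), the fatty acid synthase gene Fasn (-0.58), the ATP citrate lyase gene Acly (-0.54) and the malic enzyme gene Me1 (-0.46 ± 0.17), while Srebf1, which encodes their activator SREBP1, had -0.03. Me1 had levels of 6.38, 6.90, 6.84, 6.17 and 6.36 in wild-type and 6.04, 6.15, 6.09, 5.95 and 6.13 in knock-in glands. The knock-in animals were all just below the lowest wild-type animal. The mean of the list by animal was 4.24 to 5.05 in wild-type and 4.17 to 4.55 in knock-in glands, so the genotypes overlapped as a whole. Several of these enzymes are made by adipocytes as well as by alveolar cells. Cholesterol synthesis had a median of -0.21 with 5 of 21 lower at an unadjusted p under 0.05, among them Tm7sf2 (-0.85 ± 0.25), Fdps (-0.65) and Nsdhl (-0.58 ± 0.15). The 22 glucose and lactose genes had a median of -0.12 and none at an unadjusted p under 0.05.

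Markers of white adipocytes had a median of -0.45, with 26 of 28 below 0, beside 57.5% of all genes, and 8 lower at an unadjusted p under 0.05. The adipokine gene Retn had levels of 6.17, 6.69, 6.58, 6.13 and 6.72 in wild-type and 5.98, 5.60, 5.56, 4.74 and 5.85 in knock-in glands. The groups did not overlap, and the difference was -0.91 ± 0.24 (adjusted p = 0.729). The beta-3 adrenergic receptor Adrb3 (-0.70 ± 0.27) and the lipid synthesis gene Agpat2 (-0.65 ± 0.25) followed. Adipoq had -0.72 ± 0.42 and the lipid droplet gene Plin1 -0.35 ± 0.33, with intervals that include 0. Knock-in mouse 239 had the lowest list mean, 3.22, against 4.11 to 4.52 in the other knock-in and 4.23 to 4.80 in the wild-type animals. The part of fat content in the lipid gene values was not tested. Among 12 brown fat genes, the median was -0.07. The deiodinase gene Dio2 had -0.79 ± 0.24, and Slc27a2 (1.49 ± 0.58) and the muscle-expressed Cpt1b (1.30 ± 0.53) were higher at an unadjusted p under 0.05. Slc27a2 was near background, well above it on 3 wild-type and 5 knock-in arrays, so its probe was kept through the knock-in group only. Cpt1b was highest in mice 211 and 184, which had the most muscle RNA, and the part of muscle RNA in its difference was not tested.

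**Figure D5:**
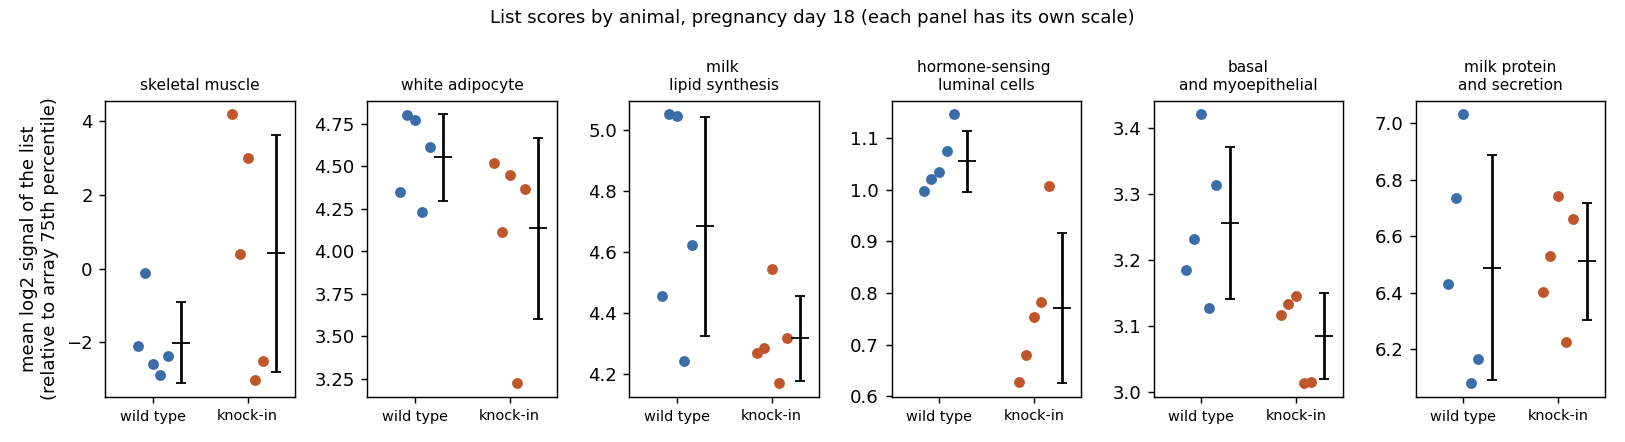
Each point is the mean log2 signal of a gene list in 1 animal, relative to the array's 75th percentile, and the bar is the group mean ± SD (n = 5); each panel has its own vertical scale. Muscle RNA is high in 3 knock-in animals and 1 wild-type animal, 1 knock-in animal is low for white adipocyte genes, and the milk protein scores of the genotypes overlap.

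Epithelial markers were read by cell type. The 24 luminal genes had a median of -0.04, with Rab25, an epithelial trafficking GTPase (-0.43 ± 0.18), the only member at an unadjusted p under 0.05. Krt8 had 0.01 ± 0.24. Of 14 genes of hormone-sensing luminal cells, 4 were lower and 1 higher at that threshold, with a median of -0.25. Cited1, a transcriptional coregulator of these cells, had levels of 0.48, 0.68, 1.42, -0.32 and 1.03 in wild-type and -1.90, -0.59, -0.13, 0.19 and -1.23 in knock-in glands. The groups overlapped, and the difference was -1.39 ± 0.42 (adjusted p = 0.729). Calca (-1.79), the serotonin synthesis gene Tph1 (-0.68 ± 0.24) and Tbx3 (-0.46 ± 0.15) were also lower, and the oestrogen target Greb1 (1.37) was higher. The receptors Esr1 (-0.23) and Pgr (0.24) lay on either side of 0.

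The 24 basal and myoepithelial genes had a median of -0.19, with 8 lower at an unadjusted p under 0.05, beside 4.01% of all genes. Tagln, an actin-binding protein of contractile cells, had levels of 7.09, 7.15, 7.22, 6.85 and 7.13 in wild-type and 6.48, 6.68, 6.60, 6.78 and 6.56 in knock-in glands. Its groups did not overlap, with a difference of -0.47 ± 0.13. Mylk (-0.55 ± 0.16) and Lama3 (-0.60 ± 0.17) also had no overlap, and Acta2 had -0.35. Des, which skeletal muscle also expresses, had 1.48, and the part of muscle RNA in that value was not tested. The basal keratins Krt14 (-0.15 ± 0.17) and Krt5 (-0.18) were not at that threshold. Tagln, Mylk and Acta2 are also expressed in vascular smooth muscle.

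The 33 cell cycle genes had a median of -0.42, with 32 below 0, beside 57.5% of all genes, and 6 lower at an unadjusted p under 0.05. Cdk1, the mitotic kinase, had levels of -0.29, -0.53, -0.53, -0.17 and 0.37 in wild-type and -1.53, -1.77, -0.78, -0.70 and -0.76 in knock-in glands. All knock-in animals were below all wild-type animals, with a difference of -0.88 ± 0.26 (adjusted p = 0.729). Pcna, the replication clamp, had -0.43 ± 0.14, and the centromere histone Cenpa -0.56 ± 0.23. Mki67 had -0.21 ± 0.38. The list mean ranged widely within each genotype, from 0.23 to 1.41 in wild-type glands and from just below 0 to 1.35 in knock-in glands. Without mice 184 and 211 the median was -0.18.

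All 20 endothelial genes were below 0, beside 57.5% of all genes, with a median of -0.35 and 5 lower at an unadjusted p under 0.05. Emcn, Sox18 and Cldn5, all of vessel lining, had -0.48 ± 0.14, -0.51 ± 0.15 and -0.60 ± 0.20, while Pecam1 had -0.09 ± 0.24. Of 24 fibroblast and matrix genes, 18 were below 0, beside 57.5% of all genes, with a median of -0.13 and no member at that threshold. Col1a1 had 0.43 ± 0.20, the highest of that list, and Lum had -0.48 ± 0.24. All 44 oxidative phosphorylation genes (median -0.26, 7 lower at an unadjusted p under 0.05) and 79 of 81 ribosomal protein genes (median -0.23, 10 lower) were below 0, beside the same 57.5%. Their list means by animal overlapped, at 5.48 to 6.07 in wild-type and 5.33 to 5.64 in knock-in glands for oxidative phosphorylation and at 7.05 to 7.67 and 6.94 to 7.32 for ribosomal proteins.

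Immune lists had medians between -0.24 and 0.24, and each one above 0 was below 0 with arrays scaled to their median. Of 18 inflammatory and acute-phase genes, 4 were higher at an unadjusted p under 0.05, with a median of 0.24. Ccl3, a chemokine of activated macrophages, had levels of -4.64, -3.31, -3.25, -4.05 and -4.49 in wild-type and -2.95, -3.24, -2.41, -2.27 and -2.44 in knock-in glands. The groups were just apart, and the difference was 1.29 ± 0.31 (adjusted p = 0.729), with 3 wild-type and all 5 knock-in arrays well above background. The Ccl3 probe was thus kept through the knock-in group only. Ccl4 had 0.88 ± 0.21, Saa3 1.32 ± 0.51 and Il1b 0.50. Of 18 T cell and cytotoxic genes, Cd5 (0.76 ± 0.22), Zap70 (0.47 ± 0.15), Lck (0.37 ± 0.14) and Ifng (1.11) were higher and Gzmb (-0.46) lower at that threshold, with a median of 0.22. The B and plasma cell list had a median of 0.13, with Mzb1 (1.00 ± 0.44) its only member at that threshold. In the interferon list (median 0.15) the only one was Gbp3 (0.39 ± 0.15). Macrophage genes had a median of 0.04 with none at that threshold, and Adgre1, the macrophage marker F4/80, had 0.05 ± 0.26. Neutrophil genes had a median of 0.07 and those of mast cells and eosinophils -0.24, with none at it. In the lymph node list (median -0.003), Ltb (0.45 ± 0.17) was higher and Enpp2 (-0.90 ± 0.24) lower at that threshold.

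The list medians of muscle and nerve genes were the highest of all lists. The median of the 16 muscle genes was 2.30, up to 5.25 for the myosin gene Myh4, and it was 0.30 without mice 184 and 211. Tnni2, a fast-muscle troponin, had levels of -1.46, 2.68, -1.96, -2.47 and -1.81 in wild-type and 8.00, 3.76, 6.86, -1.47 and -1.60 in knock-in glands. The level was high in 3 knock-in animals and in wild-type mouse 233, and the difference was 4.11 ± 1.89. The only muscle gene at an unadjusted p under 0.05 was Ttn (1.99 ± 0.73). Of 13 nerve and Schwann cell genes, 5 were higher and 1 lower at that threshold, with a median of 0.41. Ncmap had 0.66 ± 0.24, and Gfra3, a receptor subunit of sensory neurons, -1.01 ± 0.26. The part of muscle or nerve tissue in other results was not tested.

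The other lists had few members at that threshold. The unfolded protein response (25 genes, median -0.13), immediate early genes (21, -0.02) and skin genes (7, -0.01) each had 1 member at an unadjusted p under 0.05, namely Sdf2l1 (-0.40), Dusp1 (-0.49) and Krt15 (-0.84 ± 0.20), all lower. Among 19 involution genes the median was 0.05, with the protease Mmp3 (-0.86 ± 0.22) lower and Igfbp5 higher. The 7 red blood cell genes had a median of -0.34 and none at that threshold. Of 5 genes known to differ between C57BL/6 substrains, none was at that threshold, and Nnt, which is disrupted in the J substrain, had levels of 2.90 to 3.38 in wild-type and 2.61 to 3.02 in knock-in glands (-0.30 ± 0.15).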

How the data were processed

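The series is a set of 1-colour Agilent 60K mouse arrays. Per the file headers, the authors read the scans with Agilent Feature Extraction 12.0.3.2. The deposited files give an intensity (scanner brightness) for each spot, background-subtracted and detrended within the array but not scaled between arrays. The deposited value table holds log10 of the same signal. How the authors scaled arrays is unstated in the sources used here.

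The processed intensity was set to log2, outlier spots were set to missing, replicate spots were averaged, and each array's 75th percentile over non-control probes was subtracted. Probes entered the test when 80% or more of the arrays of either day-18 group showed them well above background. A mean per genotype was fitted to the 10 day-18 arrays with limma 3.58.1 in R 4.3.3, using empirical Bayes moderation, and p values were adjusted over all probes by Benjamini and Hochberg. The number of arrays limits the precision, and no spot was saturated. The step was tested on simulated data. The difference between stages used all 24 arrays. Exact p values use all splits of the 10 animals and are two-sided. The labels number each animal, so p values measure the spread between animals.

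Gene names came from the accession (35405 probes), symbol (9124) or synonym (25) in the RefSeq table, or from the file (12051). Coordinates are those of the files, on mm9. Comparison, lists and genes were chosen with earlier results of these data known. Genes named are Socs2, the 15 smallest p in each direction (by the gene's smallest-p probe, Socs2 included), the 3 smallest p of each list, and a fixed set of pathway genes; Tnfsf11 of that set was too dim to measure. Of the 161 entries on 150 genes the text gives part, and further list members named as examples were chosen after their values were seen. The alternatives were other scalings, background corrections, filters, variance models and sets of arrays, the deposited table, the slide as a block, and each animal left out.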

Additional observations from a re-analysis of the deposited data

Results flagged for a closer look

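Some animals stood far from the other 4 of their group, by a test of the gap relative to the group's range. It was applied to 358 sets of 5 values and marked 18; chance marks about 1 set in 20. Values are log2 levels. Of the marked values 7 belong to knock-in mouse 239, which also had the lowest white adipocyte score: Saa1 5.74, Saa2 6.86, Saa3 0.93, Adrb3 1.60, Sox18 0.079, Enpp2 0.47 and Pparg 2.64, each below the other knock-in animals. Wild-type mouse 233 stood apart at the second reference-transcript probe of Socs2 (1.36), at Igf1r (-0.88), at the muscle gene Tnni2 (2.68) and in the skeletal muscle score (-0.11). Wild-type mouse 235 stood apart at Nrcam (-3.23), Socs1 (-1.69), Ghr (3.22) and Cenpa (1.27). The others were 9330175E14Rik in wild-type mouse 232 (-2.30), the fibroblast score of wild-type mouse 234 (2.21) and the oxidative phosphorylation score of knock-in mouse 211 (5.33).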

How the results depend on the processing

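No called difference changed direction under the alternatives run. The count of called probes, 2 with the settings used, was 0 with all 24 arrays in the fit, 0 with 23 of them (without virgin mouse 376), 1 with slide as a block, 1 after quantile normalization, 0 with spike-in scaling, 1 with no filter, 0 with 1 probe a gene, 1 without mice 184 and 211 (an alternative chosen after seeing the data) and 1 to 2 with 1 animal left out. It was 3 with normexp correction, with probes well above background on all 10 arrays and with trended, robust variance, Nrcam being the third. It was 2 with array weights, one of them Nrcam, and with the deposited table. Median scaling also gave 2, but these were Gm35986 (-2.11, adjusted p = 0.0212) and Acsm3, both lower, and no Socs2 probe.

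The farther distal probe passed in every other setting that tested it but had adjusted p = 0.145 with 24 arrays and 0.154 with 23 (1.95 in both), 0.159 with median scaling (1.57) and 0.184 with spike-in scaling (2.09). Within slides it was 2.12, 2.12 and 1.67. With normexp correction both kept their call at their lowest differences of any setting run, 1.14 and 1.08. The nearer one lost its call with 24 arrays, 23 arrays and no filter (1.78 in each), with slide as a block (1.83), quantile normalization (1.60), median scaling (1.39), spike-in scaling (1.91), array weights (1.59) and without mice 184 and 211 (1.63), and ranged from 1.68 to 1.90 with 1 animal left out. The second reference-transcript probe was -0.37 with median scaling, and the first was -0.50. That scaling subtracts a single value from each array, so it shifts the difference of every probe without missing values by the same amount. Why the array medians differed was not tested.

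Median scaling moved the median of all probes from -0.01 to -0.40, and spike-in scaling moved it to 0.12. With median scaling every list median but those of muscle and nerve (0.02) was below 0. Of the lists given above, the hormone-sensing, basal, white adipocyte, endothelial, mast cell, cell cycle, milk lipid, cholesterol, red blood cell, oxidative phosphorylation, ribosomal, substrain and ubiquitin ligase medians stayed below 0 in all 14 settings, and those of muscle and nerve above 0; every other list changed sign in at least 1. These 14 settings do not include the fits with 1 animal left out or the values within slides. The difference between stages gave 0 calls in each setting run. No paired analysis was possible because the 2 genotypes share no animal numbers.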
